A study of Rattus norvegicus with 6 samples.

Results

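Blood vessel signalling and endothelial identity were followed through 10 genes in rat pancreatic islets before and after birth: the ligand genes Vegfa, Vegfb, Vegfc, Angpt1 and Angpt2, the receptor genes Kdr, Flt1 and Tek, and the endothelial product genes Plvap and Vwf. They were taken by symbol from the deposited expression table, and all 10 were found among its 18625 named genes. RNA sequencing covered freshly isolated islets in 2 groups of 3 libraries. The fetal group was from embryonic day 19, and the postnatal group carries the title 2 weeks, although its age labels read postnatal weeks 2, 3 and 4 for replicates 1, 2 and 3. No strain, sex, treatment or genetic change is named for either group, and the labels do not say whether a library holds 1 animal or a pool, and a p-value therefore reflects no more than the spread among these libraries, which may be technical.

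Vascular endothelial growth factors (VEGFs) are secreted proteins that guide the growth and permeability of vessels. VEGF-A acts through the endothelial receptors VEGFR2, the product of Kdr, and VEGFR1, the product of Flt1; angiopoietins act through the endothelial receptor TIE2, the product of Tek. Islet endocrine cells are a known source of VEGF-A, and islets contain a dense network of capillaries whose endothelium is perforated by fenestrae.

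The promoters of 3 genes described here are shown because these genes, 2 VEGF receptors and a gene of the fenestrated endothelium, were all higher after birth, to different extents. Each is the 250 bases before the annotated start in RefSeq on the rat assembly GRCr8, written 5′ to 3′ on the gene's strand. Capitals mark the words AGGAAG or CGGAAG, which hold the core bound by ETS transcription factors, and ACGTG or GCGTG, the core bound by hypoxia-inducible factors, on either strand.
Kdr (chr14:32571813-32572062, plus strand): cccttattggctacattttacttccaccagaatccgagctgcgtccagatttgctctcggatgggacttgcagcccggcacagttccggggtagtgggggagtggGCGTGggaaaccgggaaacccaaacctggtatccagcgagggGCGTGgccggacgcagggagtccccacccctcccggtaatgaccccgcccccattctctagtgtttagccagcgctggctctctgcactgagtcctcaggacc
Flt1 (chr12:12333180-12333429, plus strand): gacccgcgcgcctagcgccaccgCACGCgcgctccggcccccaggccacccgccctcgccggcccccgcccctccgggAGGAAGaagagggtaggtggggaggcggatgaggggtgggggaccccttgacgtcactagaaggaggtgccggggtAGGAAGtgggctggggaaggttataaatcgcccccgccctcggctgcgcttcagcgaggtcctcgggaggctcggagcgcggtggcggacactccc
Plvap (chr16:18231280-18231529, minus strand): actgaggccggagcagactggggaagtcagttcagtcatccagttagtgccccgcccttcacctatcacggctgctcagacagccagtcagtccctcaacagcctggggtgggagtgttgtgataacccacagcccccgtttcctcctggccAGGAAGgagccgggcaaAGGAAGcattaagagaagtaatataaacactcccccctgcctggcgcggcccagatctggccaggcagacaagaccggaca

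The ETS words occurred 2 times in Flt1 and 2 times in Plvap, and none was found in the Kdr window. The hypoxia words occurred 2 times in Kdr and 1 time in Flt1, and none was found in Plvap. Among all 33469 promoter windows of the same length, 39.4% held an ETS word and 36.7% a hypoxia word, so either match is common. Promoter entries were present for 6 of the 10 genes: these 3 and the ligand genes Vegfa, Vegfb and Vegfc. Neither of the 2 annotated Vegfa starts had a word of either kind in its window, Vegfb had 1 hypoxia word and Vegfc had none. A match is a run of letters and not a measured binding site.

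Expression is given as scaled CPM, reads relative to a library size that the authors adjusted between libraries. The 10 genes were covered by 146 to 8398 reads per library. Depth was 26.1 to 37.8 M reads per library before birth and 28.2 to 29.5 M after it. Differences were tested with limma on log2(scaled CPM + 1) over 12926 genes, and a gene was called when its Benjamini-Hochberg adjusted p was under 0.05. The test called 8 of the 10 higher and 0 lower, and 2 did not pass; of all genes tested it called 63.1%, 30.0% being higher and 33.1% lower. In the 8 called genes every postnatal library lay above every fetal library, which was so for 33.1% of all genes tested, with 36.9% lower and thus 70.0% without overlap in either direction. Where 0 genes are given as lower or fallen, for the 10 or for a list, 0 were also lower by limma at an unadjusted p under 0.05, and 0 were called lower by edgeR or DESeq2 on recovered reads. At least a 2-fold rise was seen in 6 of the 10, against 14.8% of all genes tested. The median log2 fold change of the 10 was 1.55, and that of all genes tested was -0.03. In whole-islet RNA, more endothelial cells, more RNA of a gene per endothelial cell and a changed share of other tissue cannot be told apart. The libraries held much acinar RNA: 11 acinar enzyme genes summed to means of 61357 scaled CPM before and 292500 after birth. For 7 islet hormone genes the means were 3748 and 77834.

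**Figure D1:**
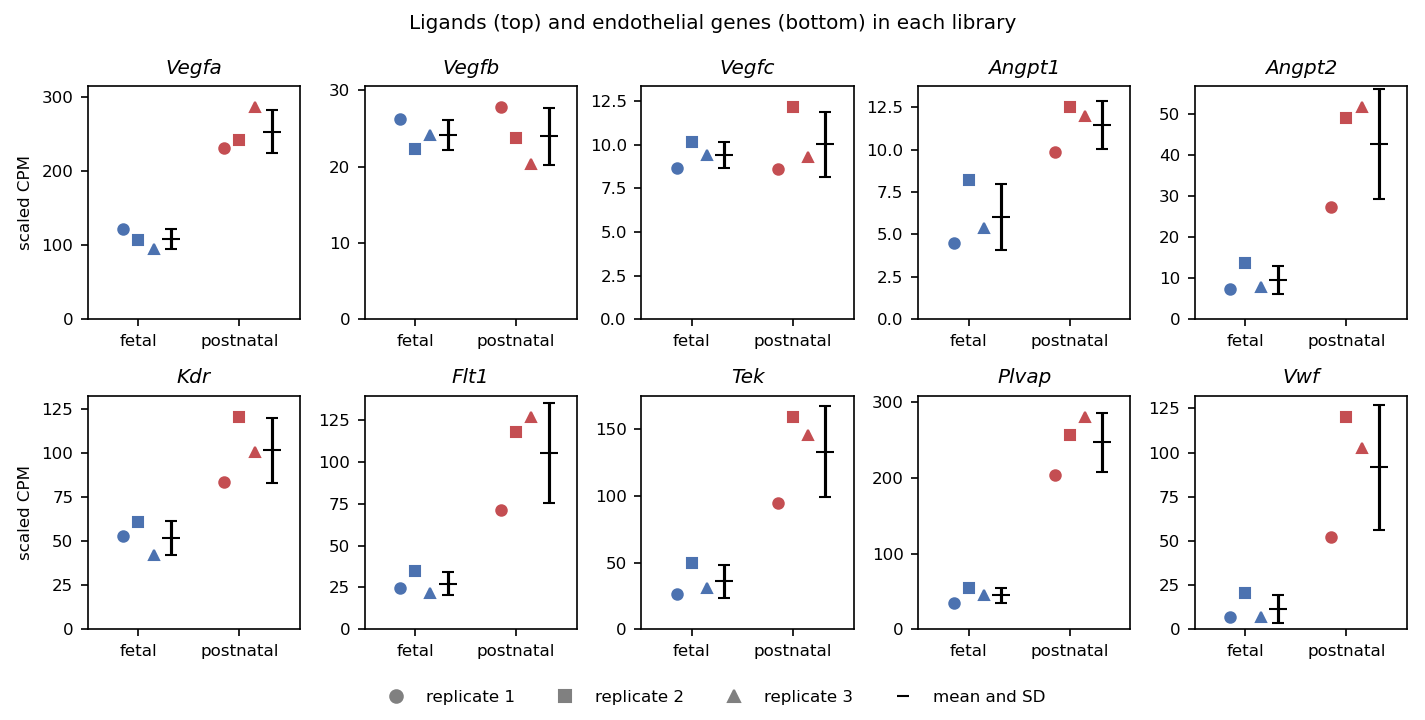
Scaled CPM of the 5 ligand genes (top row) and of the 5 receptor and endothelial product genes (bottom row) in the 3 fetal and 3 postnatal libraries; marker shapes give the replicate, and the black bar is the mean with its SD (n = 3). In 8 genes every postnatal library lies above every fetal one, while in Vegfb and Vegfc the groups overlap.

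Among the VEGF ligands, Vegfa alone passed the test. It stood at 122, 108 and 94.7 scaled CPM in fetal replicates 1, 2 and 3 and at 232, 242 and 287 in postnatal replicates 1, 2 and 3. All 3 postnatal values lay above all 3 fetal values. The means were 108 ± 13.8 and 254 ± 29.1 (SD, n = 3 each), a log2 fold change of 1.22 ± 0.13 (SE; limma adjusted p = 0.000202), or 2.33-fold.

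Vegfb, whose product binds VEGFR1 but not VEGFR2, stood at 26.2, 22.3 and 24.1 scaled CPM in the fetal libraries and at 27.8, 23.8 and 20.4 in the postnatal ones. The groups overlapped fully, and the 95% confidence interval of its log2 fold change ran from -0.34 to 0.30. Vegfc, a ligand best known for lymphatic vessels, stood at 8.69, 10.2 and 9.40 before and 8.61, 12.1 and 9.29 after birth, with an interval from -0.29 to 0.43. Neither interval reached the size of the Vegfa rise. The difference between ligands was also measured inside each library, where the scaling between libraries plays no part apart from the pseudocount. The log2 ratio of Vegfb to Vegfa went from -2.11 ± 0.16 to -3.36 ± 0.37 (SD, n = 3 each), and that of Vegfc to Vegfa from -3.39 ± 0.25 to -4.54 ± 0.30. Neither ratio overlapped between groups. By exact permutation (two-sided) p was 0.1 for each, which is the floor of a design of 3 against 3, or 0.119 when adjusted by Benjamini-Hochberg across 19 ratios. The log2 fold change of Vegfa exceeded that of 88.7% of the genes tested, so any unchanged gene also falls relative to it. The share of all genes whose ratio to Vegfa fell without overlap was not computed.

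Both VEGF-A receptor genes rose, Flt1 by more than Kdr. Kdr, the main signalling receptor of VEGF-A on endothelium, stood at 52.6, 60.6 and 41.8 scaled CPM in the fetal libraries and 83.1, 120 and 101 in the postnatal ones. Its groups did not overlap, and its log2 fold change was 0.96 ± 0.18 (limma adjusted p = 0.00214). Flt1, which binds VEGF-A tightly and is known to act largely as a trap for it, stood at 24.5, 34.8 and 21.9 before and 71.0, 118 and 127 after birth. Every postnatal library had more than the highest fetal library, and the log2 fold change was 1.90 ± 0.25 (limma adjusted p = 0.000451). The log2 ratio of Flt1 to Kdr was -1.07, -0.78 and -0.90 in the fetal and -0.23, -0.03 and 0.33 in the postnatal libraries, so that it was higher in all 3 postnatal libraries (difference 0.94 ± 0.18 SE; exact permutation p = 0.1). The ratio of Vegfa to Kdr overlapped between the groups, with means of 1.06 ± 0.21 and 1.33 ± 0.28 (difference 0.27; exact permutation p = 0.3). Single libraries moved this difference, to 0.43 without postnatal replicate 2, where the groups no longer overlapped, to 0.14 without fetal replicate 2, and to 0.07 with fetal replicate 2 and postnatal replicate 1 both left out.

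Tek and the 2 angiopoietin genes rose, the ligands to different extents. Tek stood at 26.7, 50.0 and 31.2 scaled CPM before and 94.7, 159 and 146 after birth, a log2 fold change of 1.88 ± 0.27 (limma adjusted p = 0.000641). The lowest postnatal library was still well above the highest fetal one, fetal replicate 2. Angpt1, the TIE2 agonist made mostly by cells around vessels, stood at 4.48, 8.18 and 5.39 and then at 9.87, 12.5 and 12.0 (log2 fold change 0.86 ± 0.21; limma adjusted p = 0.00805). Its groups were separated only narrowly, by fetal replicate 2 and postnatal replicate 1. Angpt2, the endothelial ligand that is stored in Weibel-Palade bodies and can oppose ANGPT1 at TIE2, stood at 7.31, 13.6 and 7.74 and then at 27.4, 48.9 and 51.6 (2.05 ± 0.29; limma adjusted p = 0.000689). The log2 ratio of Angpt2 to Angpt1 was 0.60, 0.67 and 0.45 in the fetal libraries and 1.38, 1.89 and 2.02 in the postnatal ones. It was thus 2.28-fold higher after birth, with no overlap (difference 1.19 ± 0.20 SE, exact permutation p = 0.1). A lack of overlap was common, as 16 of the 19 ratios computed had none. The ratio of Angpt2 to Tek overlapped, at -1.81 ± 0.07 and -1.64 ± 0.14 (difference 0.17; exact permutation p = 0.2), but this depended on the pseudocount: the difference was 0.25 with a pseudocount of 0.1 and 0.21 with 0.5 (exact permutation p = 0.1 for each), and -0.07 with 5.

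The endothelial product genes showed the largest rises of the 10. Plvap encodes the protein of the diaphragms that span fenestrae and caveolae. It stood at 35.2, 54.2 and 44.9 scaled CPM before and 204, 257 and 280 after birth, and its log2 fold change of 2.45 ± 0.18 (limma adjusted p = 4.61e-05) exceeded that of 97.8% of the genes tested. Vwf encodes von Willebrand factor, the clotting protein of Weibel-Palade bodies. It stood at 6.91, 20.7 and 6.75 in the fetal libraries and 52.2, 120 and 103 in the postnatal ones, a log2 fold change of 2.99 ± 0.45 (limma adjusted p = 0.000844). Fetal replicate 2 stood well above the other fetal libraries, and postnatal replicate 1 was the lowest of its group. With this pair of libraries left out, the log2 fold change of Vwf was 3.84. Vwf is also made by megakaryocytes. The summed level of 9 megakaryocyte and platelet markers was 10.3 to 28.4 scaled CPM in the fetal and 14.9 to 25.4 in the postnatal libraries, and it was highest in fetal replicate 2; Ppbp was at or near 0, with means of 0.101 and 0.103. Of the 4 of these markers tested, 1 was called higher, Gp1ba, from 1.5 ± 0.30 to 2.61 ± 0.64 scaled CPM (log2 fold change 0.52 ± 0.19), a call that ended without fetal replicate 2 (adjusted p = 0.12), fetal replicate 3 (0.114), postnatal replicate 1 (0.0963) or postnatal replicate 2 (0.122).

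**Figure D2:**
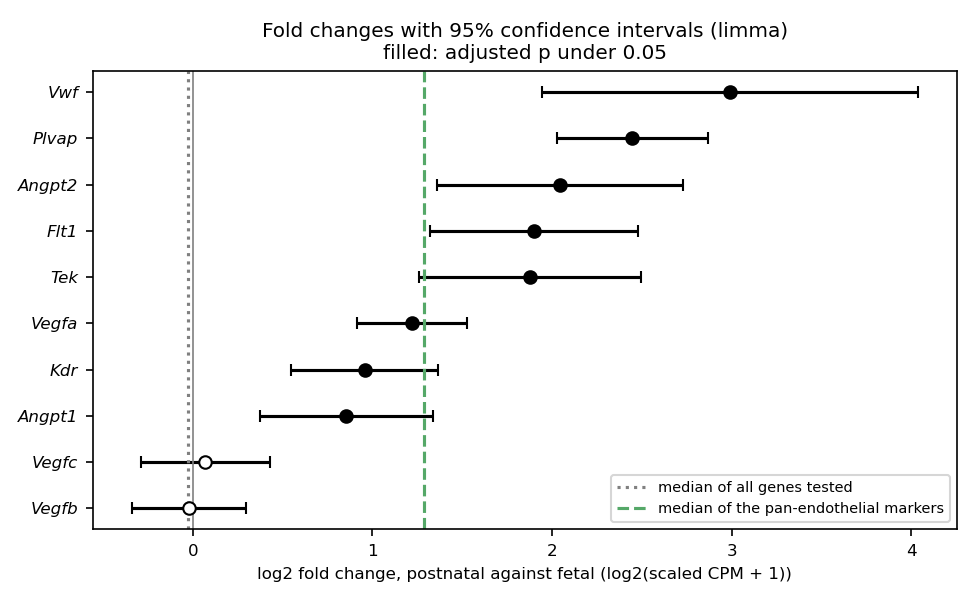
Log2 fold changes on the log2(scaled CPM + 1) scale with 95% confidence intervals from limma; filled points passed the test, the dotted line is the median of all genes tested (-0.03) and the dashed line that of 25 pan-endothelial markers (1.29). Plvap, Vwf, Angpt2, Flt1 and Tek lie to the right of the dashed line. Vegfa, Kdr and Angpt1 lie between the lines, as do Vegfb and Vegfc, which lie close to the dotted line.

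The way the libraries were scaled decided 2 of the 8 calls. Scaled to the plain total of reads, the median of all genes tested shifted to -0.36, and Kdr (log2 fold change 0.61; limma adjusted p = 0.10) and Angpt1 (0.55; 0.133) no longer passed. The other 6 rises were still called, between 0.87 for Vegfa and 2.66 for Vwf. In the same libraries the summed level of 11 acinar enzyme genes was 46035 to 70777 scaled CPM before and 176420 to 511740 after birth, highest in postnatal replicate 1, and their part in these changes was not tested.

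General endothelial markers were higher after birth in the same libraries. Of 25 pan-endothelial markers, a list that contains none of the 10, 24 rose, 0 fell and 1, Fli1, did not pass, with a median log2 fold change of 1.29. Cdh5, encoding the junction protein VE-cadherin, rose from 38.7 ± 9.19 to 79.5 ± 22.1 scaled CPM (1.01 ± 0.23; 0.66 with adjusted p = 0.111 when scaled to the plain total). The largest rises of the list were those of Adgrl4, an endothelial adhesion receptor gene (2.09 ± 0.33), and S1pr1, the receptor gene for sphingosine 1-phosphate (2.01 ± 0.27). The summed level of the 25 markers was 385, 623 and 438 scaled CPM in fetal replicates 1, 2 and 3 and 940, 1526 and 1355 in postnatal replicates 1, 2 and 3, a ratio of means of 2.64. Scaled to the plain total, 16 of the 25 were called higher.

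The same libraries were high or low for most of these genes. Fetal replicate 2 had the highest fetal value of 24 of the 25 pan-endothelial markers and of 8 of the 10 genes, where it did so for 30.2% of all genes tested. Postnatal replicate 1, with the age label of week 2, had the lowest postnatal value of 25 of the 25 markers and 9 of the 10 genes, against 39.6% of all genes tested. The order was not particular to endothelial genes. Postnatal replicate 1 was also lowest for 8 of 8 fibroblast, 9 of 9 macrophage and 10 of 11 mural cell markers, and highest for 11 of 11 acinar genes. Fetal replicate 2 was highest for 8 of 9 macrophage, 8 of 11 mural cell and 4 of 8 fibroblast markers. The same held for 6 of 7 hormone, 8 of 11 acinar and 7 of 8 erythroid genes. The erythroid genes summed to 5779, 11475 and 3507 scaled CPM in fetal replicates 1, 2 and 3. After birth their sum had a mean of 1326, and 7 of the 8 were called lower. The part of blood in the other values was not tested. Vegfb was the exception among the 10, with its highest postnatal value in postnatal replicate 1. Without both libraries, 8 of the 10 genes were called higher, with log2 fold changes from 1.16 for Angpt1 to 3.84 for Vwf. Both libraries were picked from the values above. Leaving out a gene's highest fetal and lowest postnatal value can only widen its rise, so the setting is no test of those calls.

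Set against the summed pan-endothelial markers of the same library, the 10 genes fell into groups. The ratio of Vwf to that sum was higher after birth in all 3 libraries, by 1.59 ± 0.33 (SE) on the log2 scale, and that of Plvap by 1.04 ± 0.13. For Plvap the log2 ratio was -3.42, -3.50 and -3.26 in the fetal libraries and -2.20, -2.57 and -2.27 in the postnatal ones. Angpt2 (0.64 ± 0.13; 0.30 with a pseudocount of 5), Flt1 (0.50 ± 0.14) and Tek (0.48 ± 0.06) were higher relative to the sum as well. These are 5 genes whose ratio did not overlap and was higher; the same held for 4.10% of all genes tested, while 77.5% were lower without overlap. Kdr went the other way within the endothelial receptors: its ratio was -2.85, -3.34 and -3.36 before and -3.48, -3.66 and -3.74 after birth, a difference of -0.44 ± 0.18 (-0.28 without fetal replicate 1). Such ratios depend on the markers chosen, and in the sum high markers count most. Log2 fold changes of single markers ran from 0.65 to 2.09, and that of Kdr, 0.96, lay within this range and near that of Cdh5 (1.01). The ratios of Vegfb, Vegfc and Angpt1 were also lower without overlap, by -1.42 ± 0.41, -1.33 ± 0.20 and -0.55 ± 0.12. The Vegfa ratio overlapped, with means of -2.12 ± 0.44 and -2.30 ± 0.32 (exact permutation p = 0.6); leaving libraries out moved their difference of -0.18 to between -0.52 and 0.0588. For each of the 9 ratios without overlap the exact permutation p was 0.1 (adjusted 0.119), which this number of libraries cannot go below.

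**Figure D3:**
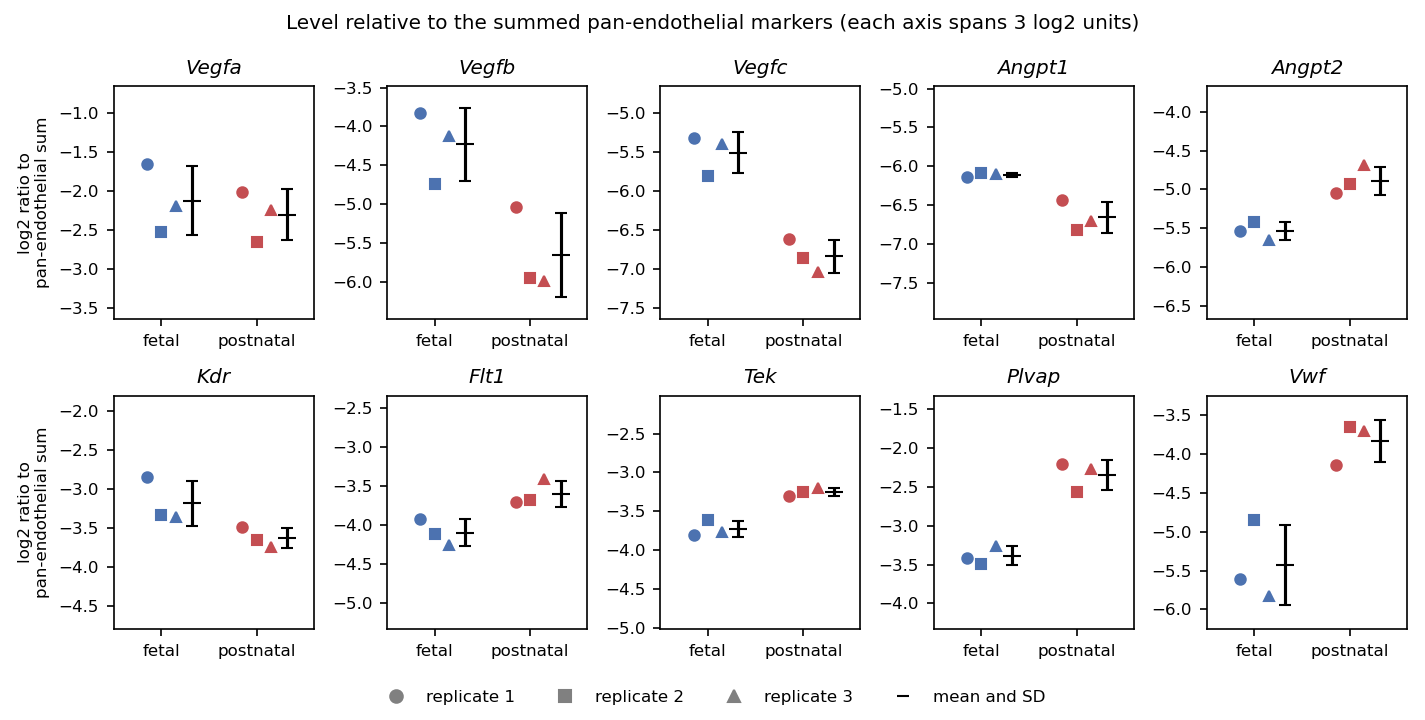
Log2 ratio of each gene to the sum of 25 pan-endothelial markers in the same library, with the mean and SD (n = 3); each vertical axis spans 3 log2 units. Vwf, Plvap, Angpt2, Flt1 and Tek are higher in all 3 postnatal libraries, Kdr, Angpt1, Vegfb and Vegfc are lower, and the Vegfa groups overlap.

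Other genes of the VEGF and TIE pathways were higher in part. Where 30.0% of all genes tested were called higher, 3 of 5 further VEGF ligand and receptor genes rose and 0 fell. These were the lymphatic receptor gene Flt4, from 7.20 ± 1.14 to 12.7 ± 2.55 scaled CPM (log2 fold change 0.73 ± 0.18), and the co-receptor genes Nrp1, from 107 ± 11.5 to 165 ± 33.4 (0.61 ± 0.17), and Nrp2, from 20.4 ± 3.95 to 31.7 ± 5.58 (0.61 ± 0.18). None of the 3 calls held with plain totals, where the values were 0.41, 0.26 and 0.28, and without postnatal replicate 2 neither Nrp1 (adjusted p = 0.0514) nor Nrp2 (adjusted p = 0.0692) passed. Nrp2 also missed without fetal replicate 3 (adjusted p = 0.0575). The placental growth factor gene Pgf stood at 2.48 ± 0.14 and 2.62 ± 0.14, and Vegfd at 4.41 ± 1.33 and 3.70 ± 1.96. In the TIE pathway, the orphan receptor gene Tie1, also on the pan-endothelial list, rose from 46.1 ± 14.1 to 121 ± 35.7 (1.37 ± 0.26). Angpt4, an angiopoietin of low level here, went from 0.384 ± 0.258 to 1.45 ± 0.307 (0.83 ± 0.19). Its fetal values were 0.675, 0.290 and 0.185, so it met the filter of 1 scaled CPM through its postnatal values only. With plain totals, or with a filter of 5 scaled CPM, it was not tested.

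Genes of vessel subtypes rose in part. Of 14 tip, arterial and venous genes tested, Nrp1 and Nrp2 again among them, 10 rose, 1 fell and 3 did not pass (5 rose with plain totals, 6 without postnatal replicate 2). Selp, encoding the adhesion protein P-selectin of Weibel-Palade bodies, rose from 0.564 ± 0.501 to 26.1 ± 14.3 scaled CPM (3.98 ± 0.45; 4.76 with fetal replicate 2 and postnatal replicate 1 both left out), and Bmx, an arterial kinase gene, from 1.17 ± 0.29 to 8.81 ± 2.77 (2.15 ± 0.23). Ephb4, a venous ephrin receptor gene that other cells also express, was the one that fell (-0.34 ± 0.12), a call that ended under 12 of the 19 alternatives tried. Of 8 genes listed under fenestrae, caveolae and Weibel-Palade bodies, Selp among them, 7 rose and 0 fell. The list is broad and also holds Gpihbp1 and Cd63, which are not particular to these structures. Edn1, encoding the vasoconstrictor endothelin 1, rose by 1.92 ± 0.30. With plain totals 4 of these 8 rose. Of 8 lymphatic genes, Flt4 again among them, 4 rose, 0 fell and 4 did not pass, where 30.0% of all genes tested were called higher. Prox1 was among those that did not pass (0.28 ± 0.20). The largest rises were those of the chemokine gene Ccl21, from 4.61 ± 2.94 to 63.3 ± 30.7 (3.57 ± 0.47), and of Pdpn (1.71 ± 0.20), which fibroblasts express too, while the lymphatic receptor gene Lyve1 stood at 16.0 ± 6.51 and 17.2 ± 9.67.

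Markers of cells that wrap and surround vessels rose as well. Of 11 mural cell markers, 10 rose and 0 fell, with a median log2 fold change of 1.27, led by the pericyte gene Rgs5, from 3.66 ± 1.26 to 56.9 ± 10.5 scaled CPM (3.65 ± 0.22), and the smooth muscle gene Tagln (2.60 ± 0.52; 1.96 without fetal replicate 3). Their summed level was 252 to 421 before and 855 to 1270 after birth. Of 8 fibroblast markers, 7 rose, with a median of 2.22, and their sum was 1581 to 2359 before and 7135 to 12346 after birth. Of 9 macrophage markers, 4 rose, where 30.0% of all genes tested were called higher. The number was 1 with plain totals and 2 without fetal replicate 3 or without postnatal replicate 2. It was 7 with fetal replicate 2 and postnatal replicate 1 both left out. The sum of the 9 markers overlapped, at 46.1 to 94.2 and 73.9 to 147. The part of these cell types in the levels of the 10 genes was not tested. Among 10 genes known as inhibitors of vessel growth, 6 rose and 0 fell (4 with plain totals). Serpinf1, encoding pigment epithelium-derived factor, rose from 14.8 ± 6.45 to 63.6 ± 17.0 (2.07 ± 0.30) and the thrombospondin gene Thbs2 from 30.1 ± 9.07 to 118 ± 17.2 (1.96 ± 0.21).

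**Figure D4:**
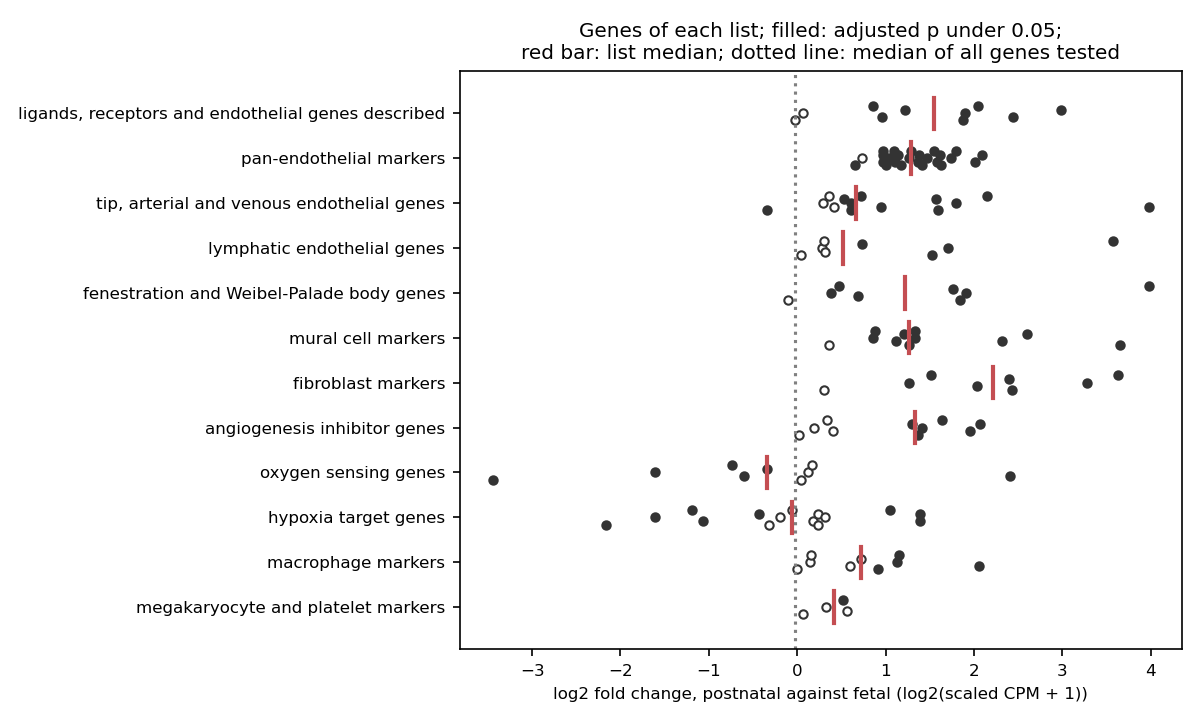
Log2 fold changes on the log2(scaled CPM + 1) scale of the genes tested in each list, with filled points for genes that passed the test and a red bar at the list's median. The pan-endothelial, mural and fibroblast lists lie to the right of the dotted median of all genes tested, and the oxygen sensing and hypoxia target lists spread to both sides of it.

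Vegfa is a known target of the hypoxia-inducible factors, which are degraded when oxygen is plentiful, and the genes of that pathway moved in both directions. Hif1a, encoding the broadly expressed factor subunit, stood at 94.97 ± 2.03 and 108 ± 12.3 scaled CPM and did not pass (log2 fold change 0.17 ± 0.11). It was called higher under 3 of 19 alternatives, after rescaling without the 20 highest genes (0.41), with upper quartile scaling (0.31) and without postnatal replicate 1 (0.26). Epas1, encoding the related subunit HIF-2 alpha that endothelium expresses strongly, rose from 10.8 ± 2.85 to 61.5 ± 14.5 (2.40 ± 0.23; limma adjusted p = 0.000114). Hif3a fell from 16.8 ± 3.96 to 0.615 ± 0.213 (-3.45 ± 0.19). Of 9 oxygen sensing genes, 1 rose and 5 fell; after rescaling without the 20 highest genes 4 rose and 4 fell, and without postnatal replicate 1 2 rose. The prolyl hydroxylase gene Egln3, itself induced by low oxygen, fell by 1.61 ± 0.25. Of 15 hypoxia target genes other than Vegfa, Egln3 again among them, 3 rose, 5 fell and 7 did not pass, with a median of -0.06. Of all genes tested 30.0% were called higher and 33.1% lower, with a median of -0.03, so genes at large also moved in both directions. After rescaling without the 20 highest genes 6 of the 15 rose and 4 fell, and without postnatal replicate 1 the number that rose was 5. Bhlhe40, a transcriptional repressor gene (1.40 ± 0.17), and Adm, encoding the vasodilator adrenomedullin (1.39 ± 0.33), rose most, and Ldha, encoding lactate dehydrogenase A, fell most (-2.16 ± 0.11).

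Vegfa was also set beside the islet hormones, since endocrine cells are a known source of it. The summed level of 7 hormone genes was 3574, 5623 and 2048 scaled CPM in fetal replicates 1, 2 and 3 and 59992, 62572 and 110940 in postnatal replicates 1, 2 and 3, a ratio of means of 20.8 against 2.34 for Vegfa. Within the postnatal group both were highest in postnatal replicate 3, and within the fetal group they were highest in different libraries, Vegfa in fetal replicate 1 and the hormones in fetal replicate 2.

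The genes with the profile most like that of Kdr over the 6 libraries, among 9169 genes with a mean of at least 10 scaled CPM, were Dusp3, Phlda3 and Thy1. Likeness was the root mean square distance between log2 profiles, each centred on its own mean, and was 0.058, 0.062 and 0.070. For Vegfa the nearest genes were Rab3a (0.044), Mzf1 (0.044) and Ppp2r5b (0.071). Among the 10 genes themselves the nearest to Kdr was Angpt1 (0.20), the nearest to Vegfa was Kdr (0.24), and the farthest from either was Vwf (1.11 and 1.07).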

How the data were processed

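RNA was extracted from isolated islets and sequenced from ribosomal RNA-depleted stranded libraries, per the labels' protocols. The tools, per the submitters' processing notes, were TopHat2 2.0.8b and edgeR 3.30.3, with no roles stated. Build, annotation, counter and strand setting: not given in the sources used here. The authors deposited 1 normalized signal per gene and library. Within a tolerance of 0.001 reads, 100% of values are whole reads times 1 constant per library, so 3 reads equal 0.0726 to 0.152 scaled CPM. A row without a gene name (1 to 9 reads) was left out.

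Genes reaching 1 scaled CPM in 3 or more of 6 libraries were tested by limma (3.58.1, under R 4.3.3) with a trended prior, group as the sole term and a pseudocount of 1, two-sided. A gene could thus enter the test through the libraries of the group where it is higher. Fold changes on the log2(value + 1) scale understate those of low genes. Ratios and summed markers were compared by two-sided exact permutation. Alternatives were other pseudocounts, filters and scalings, the replicate number as a block, the age label week as a covariate, libraries left out, and count tests of the recovered reads (edgeR 4.0.16, DESeq2 1.42.0); edgeR called 4060 genes higher and 4068 lower. On simulated reads (10 simulations, a median of 12782 genes with 200 changed) limma recovered a median of 67.7% of 2-fold and 97.6% of 4-fold changes, with 5.12% false calls. The simulated setting has far fewer changed genes than the 63.1% called here. Its rates therefore may not hold for the comparison of fetal and postnatal libraries. Of 187 list entries, 171 were matched to the table, 1 of them (Car9 as Ca9) through RefSeq synonyms; Pecam1 is not analysed here. The genes described, the lists and the tests were chosen with earlier results of these data known. Beside the 10 genes, the rule named fixed pathway genes and up to 2 rises and 2 falls per list, and 3 genes nearest to Kdr and to Vegfa; other genes were named after their values were seen.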

Additional observations from a re-analysis of the deposited data

How the results depend on the processing

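Of the 10 genes, 8 were called higher and 0 lower under each of the 19 alternatives except the scaling to plain totals, where 6 were higher, and with each library left out in turn the count stayed at 8. All counts of the 10 genes called, and of list genes called (92 higher and 17 lower, 65 and 19 with plain totals, 106 and 14 after rescaling without the 20 highest genes), stayed within 1.5 times. The share of all calls that were higher was 47.5%, 25.9% with plain totals, 61.2% after that rescaling and 55.2% with upper quartile scaling; the median of all genes tested was -0.36, 0.20 and 0.10 with these scalings. Same-numbered libraries did not deviate together (r of -0.21, 0.10 and -0.25), and with the replicate number as a block 8 of the 10 genes were called higher, 3563 genes in all higher and 3863 lower.

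Values near 0 changed sign. Vegfb was 0.21 after rescaling without the 20 highest genes, 0.11 with upper quartile scaling, 0.027 with edgeR and 0.026 with DESeq2, and -0.18 to 0.0872 with libraries left out. With plain totals Vegfc was -0.25, Hif1a -0.18 and Pgf -0.19. With libraries left out, Vegfc ranged from -0.0653 to 0.21 and Vegfd from -0.57 to 0.23. The ratio of Angpt2 to Tek changed by -0.070 with a pseudocount of 5, and that of Vegfa to the pan-endothelial sum by -0.52 to 0.0588 with libraries left out. None of these values was called; the cause was not tested. The number of libraries, 3 a group, limits the precision, as does depth: the 10 genes had 146 to 8398 reads per library.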
